A study of Mus musculus with 6 samples.

Results

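Serpins are a family of protease inhibitors, and 47 of the 5017 genes named on these brain arrays carry a symbol that starts with Serpin. They were chosen by that symbol alone, from probe sets annotated with 1 symbol, and they are read by 297 of the 58919 probe sets tested. By the letter after the family name, 20 belong to clade a, 23 to clade b, 1 to clade c, 1 to clade e and 2 to clade f. All 20 clade a genes lie on chromosome 12, the clade b genes on chromosomes 1 (11 genes) and 13 (12 genes), *Serpinc1* and *Serpine2* on chromosome 1, and *Serpinf1* and *Serpinf2* on chromosome 11. A gene had between 1 and 11 probe sets, with a median of 6.

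Total RNA of mouse brain was hybridised to 6 Affymetrix whole-transcript arrays. The 3 controls have the genotype APPPS1-FVB, and the 3 others have APPPS1-FVBxABCC1 and are titled knockout. Both groups carry the APPPS1 transgenes, which as background express mutant human APP and mutant presenilin 1 in neurons under a *Thy1* promoter and lead to amyloid plaques, and no group without them was compared here. *Abcc1*, which encodes an efflux transporter, was not analysed here, so the genotypes are taken from the labels unchecked. Sex, age and batch are not labelled, nor is it stated whether each array is a separate animal, and the p-values therefore cover the spread between these 6 arrays, which may be technical.

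A typical serpin offers a protease a bait loop, is cut there, and traps the protease in a complex that does not release it. Clade a serpins are mostly secreted and known from blood plasma and the acute-phase response, while clade b serpins lack a classical signal peptide and mostly act inside cells. In brain, *Serpina3n* is known as a transcript of reactive astrocytes, *Serpine2* encodes the thrombin and plasminogen activator inhibitor protease nexin-1, and *Serpinf1* encodes the neurotrophic factor PEDF, which has the serpin fold but does not inhibit proteases. The mouse genome holds several clusters of near-identical serpin copies, so a probe set of 1 copy may also take up transcripts of another.

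Upstream sequences are shown for 3 neighbouring Serpina3 genes, because *Serpina3n* and *Serpina3f* both had lower values in every knockout array by gene mean while their neighbour *Serpina3g* was dim, and for *Serpine2*, the gene whose 11 probe sets all lay above the dim limit and all had lower values in the knockout. Each is the 250 bases before the gene's annotated start in RefSeq on GRCm38.p6, which held such a window for 39 of the 47 genes. The windows are chr12:104406458-104406707 on the plus strand for *Serpina3n*, chr12:104214294-104214543 on the plus strand for *Serpina3f*, chr12:104235897-104236146 on the plus strand for *Serpina3g*, and chr1:79858666-79858915 on the minus strand for *Serpine2*. Capitals mark the longest run shared by the 3 Serpina3 windows, and in *Serpine2* the bases covered by copies of GGGCGG, the core of a GC box, some of which overlap.
Serpina3n: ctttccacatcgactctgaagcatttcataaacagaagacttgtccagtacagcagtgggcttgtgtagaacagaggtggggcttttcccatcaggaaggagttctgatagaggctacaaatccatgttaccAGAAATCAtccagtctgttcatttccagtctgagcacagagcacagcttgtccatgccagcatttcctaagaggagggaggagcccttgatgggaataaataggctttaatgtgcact
Serpina3f: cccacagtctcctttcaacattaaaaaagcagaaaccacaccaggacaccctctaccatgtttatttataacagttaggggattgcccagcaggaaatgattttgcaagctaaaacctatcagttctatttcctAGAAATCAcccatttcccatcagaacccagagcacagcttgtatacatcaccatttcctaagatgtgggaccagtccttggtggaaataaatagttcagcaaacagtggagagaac
Serpina3g: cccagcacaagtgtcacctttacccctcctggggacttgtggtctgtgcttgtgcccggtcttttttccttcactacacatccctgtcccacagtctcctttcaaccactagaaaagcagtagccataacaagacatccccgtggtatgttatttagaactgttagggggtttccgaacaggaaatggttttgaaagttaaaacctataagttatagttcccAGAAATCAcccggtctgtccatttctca
Serpine2: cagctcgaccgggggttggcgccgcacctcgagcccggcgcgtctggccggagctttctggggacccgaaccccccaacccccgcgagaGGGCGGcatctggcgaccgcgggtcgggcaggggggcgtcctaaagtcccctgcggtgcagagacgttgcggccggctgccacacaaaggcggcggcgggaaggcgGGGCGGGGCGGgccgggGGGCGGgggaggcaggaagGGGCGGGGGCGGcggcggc

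The run AGAAATCA has 8 bases and begins 118 bases before the annotated start of *Serpina3n*, 116 before that of *Serpina3f* and 28 before that of *Serpina3g*. Searched on both strands, it was in 434 of 32851 windows (1.32%), and among the serpins in those of *Serpina3c*, *Serpina3f*, *Serpina3g* and *Serpina3n*. In a global alignment that allowed gaps, the windows of *Serpina3n* and *Serpina3f* matched at 168 of 224 aligned positions (75%). Those of *Serpina3n* and *Serpina3g* matched at 114 of 152 (75%), and those of *Serpina3f* and *Serpina3g* at 126 of 152 (82.9%). Positions facing a gap were not counted. The palindrome TTCNNNGAA, known as the general form of a STAT site, occurs as TTCCTAGAA in *Serpina3f* and as TTCCCAGAA in *Serpina3g*, where it overlaps the run and begins 121 and 33 bases before the start. That pattern was in 7.02% of all windows and in 9 of 46 serpin windows, which belong to 7 of the 39 serpins. The letters were not found in the *Serpina3n* window. The *Serpine2* window is 78.8% G and C and holds 6 copies of GGGCGG, overlaps and both strands counted. At least 1 copy is in 32.7% of all windows and in 6 of 46 serpin windows, which belong to 6 of the 39 serpins. The run, the genes shown and the patterns were chosen after values of these data were seen, and a match describes letters, not a working site.

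The share of serpins above dim signal in brain was smaller than that of all genes, by either way of summing up a gene. A signal was called dim when it did not pass the 95th percentile of 154 olfactory receptor genes, a family used in the nose, which was 5.08 on the log2 scale for the mean of all probe sets and 5.19 for the brightest probe set. Above it were 14 of 47 serpins by gene mean (29.8%, where 71.2% of all genes were) and 28 of 47 by brightest probe set (59.6%, where 86.0% of all genes were). Single probe sets were set against the brightest limit of 5.19, here and below. By it the share was 96 of 297 (32.3%, where it was 74.1% of all tested). The same 14 were above by both measures, 14 more by the brightest probe set alone, and 19 by neither. The olfactory receptor genes had a median of 3.39 by gene mean and 3.52 by brightest probe set. A gene with more probe sets has more chances to pass by its brightest. Numbers of probe sets were not matched between serpins and olfactory receptor genes, so the count of 28 may be too high. They were not matched to all genes either: serpins had 297 probe sets over 47 genes, all genes 53644 over 5017. The shares of 59.6% and 86.0% by brightest probe set are therefore not on equal terms. Levels of different genes are not ranked here, because each probe set has its own response.

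**Figure D1:**
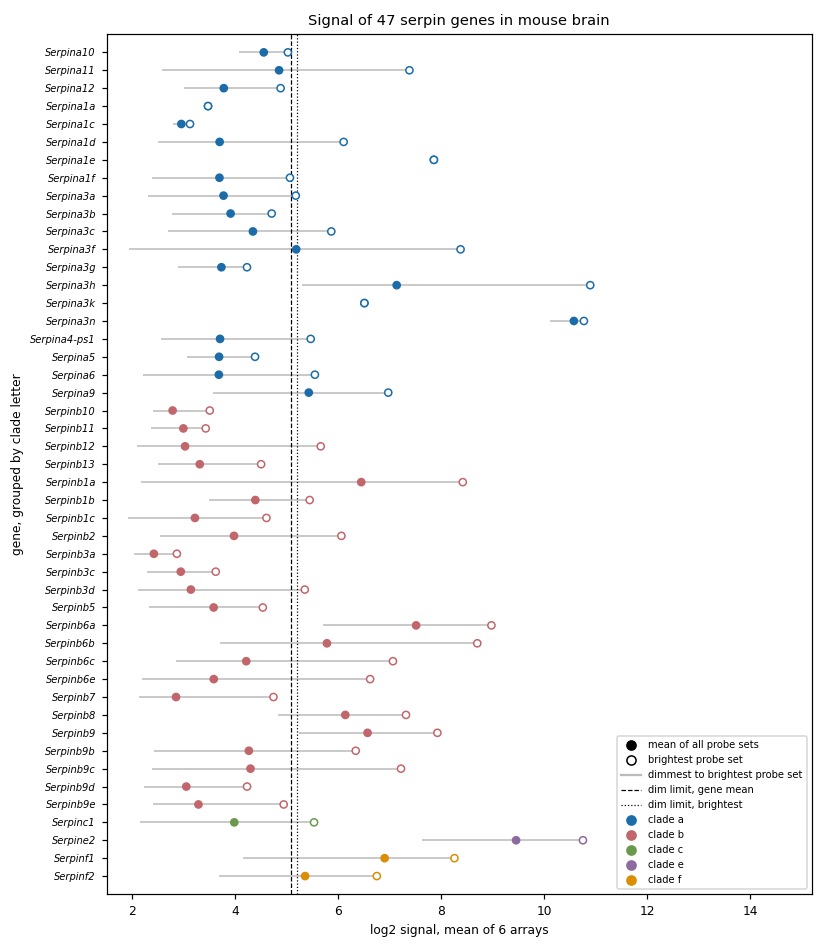
Log2 signal (mean of 6 arrays) of the 47 serpin genes, ordered by clade. Filled points are the mean of all probe sets, open points the brightest probe set, grey lines run from the dimmest to the brightest probe set, an open point covers the filled one where a gene has 1 probe set, and vertical lines mark the dim limits of 5.08 (gene mean) and 5.19 (brightest); 14 filled and 28 open points lie to the right of their limit.

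In clade a, 6 of 20 genes were above the limit by both measures, 5 by the brightest probe set alone and 9 by neither. The 6 were *Serpina1e*, *Serpina3f*, *Serpina3h*, *Serpina3k*, *Serpina3n* and *Serpina9*. *Serpina1e* and *Serpina3k* have 1 probe set each, so mean and brightest are the same measurement there. *Serpina3n* had all 4 probe sets above the limit, from 10.12 to 10.77 on the log2 scale, and *Serpina3h*, annotated as a transcribed pseudogene, had all 5, from 5.29 to 10.89. In *Serpina3f* the signals ran from 1.93 to 8.38 and 3 of 6 probe sets were above it. *Serpina6*, which encodes the corticosteroid-binding globulin of plasma, had 1 of 9 above it, and *Serpina10*, *Serpina12*, *Serpina3g* and *Serpina5* had none.

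In clade b, 5 of 23 genes were above the limit by both measures, 8 by the brightest probe set alone and 10 by neither. The 5 were *Serpinb1a*, an inhibitor of neutrophil elastase, *Serpinb6a* and *Serpinb6b*, relatives of the human thrombin and cathepsin G inhibitor SERPINB6, *Serpinb8*, a furin inhibitor, and *Serpinb9*, an inhibitor of granzyme B. *Serpinb6a* and *Serpinb9* each had all 9 probe sets above it, and *Serpinb8* had 8 of 9. *Serpinb3a*, *Serpinb3c*, *Serpinb5*, *Serpinb7*, *Serpinb10*, *Serpinb11* and *Serpinb13* had 0 above it.

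*Serpinc1*, which encodes antithrombin, was above the limit by its brightest probe set alone, with 2 of 10 probe sets. *Serpine2* had all 11 above it, from 7.63 to 10.75 on the log2 scale. *Serpinf1* had 7 of 9 and *Serpinf2*, which encodes the plasmin inhibitor alpha-2-antiplasmin, 5 of 10. For comparison, 3 liver genes fixed as markers of a tissue that should be missing (*Apoa2*, *Apoh* and *Cps1*) were above the limit in 0 of 3 by gene mean and in 3 of 3 by brightest probe set.

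No serpin passed the test of the knockout against the controls, at any level of summing up. With limma and an adjusted p below 0.05, 0 of 297 probe sets passed (smallest adjusted p 0.480, percent called over all probe sets 0.00509), 0 of 47 genes by gene mean (smallest adjusted p 0.215, percent called 0) and 0 of 47 by brightest probe set (smallest adjusted p 0.262, percent called 0). At an unadjusted p below 0.05 there were 30 probe sets (10.1%, where 7.69% of all tested did so), 8 of 47 gene means (where 14.1% of all genes did so) and 7 brightest probe sets (14.9%, where 9.61% of all genes did so). Of the 30 probe sets, 23 had lower values in the knockout (7.74%, against 2.94% of all) and 7 higher values (2.36%, against 4.75% of all). Of the 8 gene means, 6 were lower (6.12% of all genes were) and 2 higher (7.95% of all genes), and of the 7 brightest probe sets 6 were lower (5.9% of all genes) and 1 higher (3.71% of all genes). The 8 gene means were 5 without control 3.

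More serpins had lower than higher values in the knockout. By gene mean 30 of 47 were lower and 17 higher (63.8% lower, where 51.4% of all genes were), with a median log2 difference of -0.03 (all genes -0.00). By brightest probe set 29 were lower and 18 higher (61.7% lower, where 56.7% of all genes were), with a median of -0.07 (all genes -0.02). At single probe sets 181 of 297 were lower (60.9%, where 47.2% of all were). Copies in a cluster share sequence, so these genes are not independent of each other, and the counts carry no test.

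By clade, the lower values were 11 of 20 genes in clade a by gene mean and 10 of 20 by brightest probe set, with median log2 differences of -0.04 and 0.01. In clade b they were 15 of 23 by each measure, with medians of -0.02 and -0.08. The single genes of clades c and e were lower by both measures, and so were both genes of clade f, with medians of -0.21 and -0.34. Among the 28 serpins above the limit by brightest probe set, 22 were lower by gene mean and 19 by brightest probe set. Among the 19 others the numbers were 8 and 10.

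**Figure D2:**
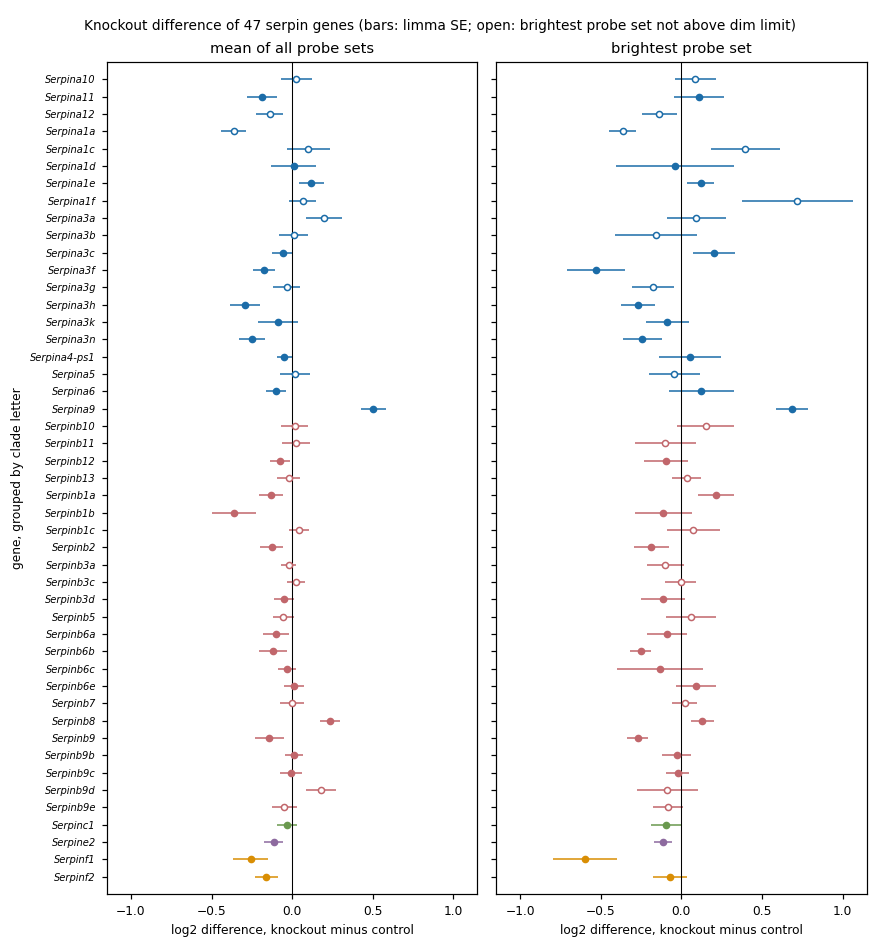
Log2 difference, knockout minus control, of the 47 serpin genes by mean of all probe sets (left) and by brightest probe set (right), with limma standard errors as bars. Filled points are genes above the dim limit by brightest probe set, open points the others. Of the 47 points 30 lie left of 0 on the left and 29 on the right, and *Serpina9* lies farthest right of the filled points in both.

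The 3 knockout arrays lay beyond the 3 control arrays in 9 serpins by gene mean (19.1%, where 20.2% of all genes did so) and in 7 by brightest probe set (14.9%, where 14.6% did so). These shares are near those of all genes. At single probe sets all knockout values were below the controls in 31 of 297 (10.4%, where 5.52% of all were) and above them in 12 (4.04%, where 7.94% of all were). By gene mean *Serpina1a*, *Serpina3f*, *Serpina3h*, *Serpina3n*, *Serpina6*, *Serpine2* and *Serpinf2* lay below (7 genes, as 8.85% of all genes did) and *Serpina9* and *Serpinb8* above (2 genes, as 11.3% of all genes did). By brightest probe set *Serpina1a*, *Serpina3f*, *Serpinb6b*, *Serpinb9*, *Serpine2* and *Serpinf1* lay below (6 genes, as 8.37% of all genes did) and *Serpina9* above (1 gene, as 6.2% of all genes did). *Serpina1a*, *Serpina3f*, *Serpine2* and *Serpina9* were in both sets.

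*Serpina3n* is the mouse relative of human alpha-1-antichymotrypsin, an inhibitor of cathepsin G and other serine proteases. Its gene mean was 10.71, 10.53 and 10.86 on the log2 scale in control 1, 2 and 3, and 10.49, 10.40 and 10.47 in knockout 1, 2 and 3. Each knockout value was below each control value. Group means were 10.70 ± 0.16 (SD, n = 3) and 10.45 ± 0.05 (SD, n = 3), a log2 difference of -0.25 and an SE of 0.08 (limma adjusted p = 0.269). All 4 probe sets had lower values, with log2 differences from -0.29 to -0.20. In 3 of the 4 the groups did not overlap, where they did not in 13.5% of all tested probe sets. The brightest was the one that overlapped, at 10.92, 10.70 and 11.06 in controls and 10.71, 10.47 and 10.77 in knockouts (log2 difference -0.24, SE 0.12, limma adjusted p = 0.575).

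The other Serpina3 genes varied in direction, and 6 of the 8 measured were lower by each measure. The pseudogene *Serpina3h* had gene means of 7.23, 7.14 and 7.47 in controls and 6.99, 6.88 and 7.10 in knockouts on the log2 scale, with no overlap. The log2 difference was -0.29 (SE 0.09, limma adjusted p = 0.257), and 4 of 5 probe sets were lower. *Serpina3f* had gene means of 5.32, 5.13 and 5.36 in controls and 5.08, 5.10 and 5.10 in knockouts, barely above the dim limit. Its 6 probe sets all had lower values. Its brightest probe set had log2 signals of 8.54, 8.81 and 8.57 in controls and 7.99, 7.83 and 8.51 in knockouts with knockout 3 close to the lowest control. That log2 difference was -0.53 (SE 0.18, limma adjusted p = 0.504). *Serpina3k*, a liver-secreted kallikrein inhibitor, had -0.09 at its single probe set (limma adjusted p = 0.790), with overlapping groups. *Serpina3c* had a log2 difference of -0.06 by gene mean and 0.20 by brightest probe set, and *Serpina3a*, above the limit by neither measure, had 0.20 and 0.09.

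*Serpina9*, known as centerin or GCET1 from germinal centre B cells, had higher values in the knockout. Its gene mean was 5.20, 5.26 and 5.07 on the log2 scale in control 1, 2 and 3, and 5.80, 5.67 and 5.56 in knockout 1, 2 and 3, so control 3 was not above the limit of 5.08 and the groups did not overlap. Group means were 5.17 ± 0.10 (SD, n = 3) and 5.68 ± 0.12 (SD, n = 3), a log2 difference of 0.50 (SE 0.08), with an unadjusted limma p of 0.000191 and an adjusted p of 0.215. All 5 probe sets had higher values, with log2 differences from 0.23 to 0.82. In 2 of the 5 the groups did not overlap, as in 13.5% of all tested probe sets. The brightest had 6.55, 6.73 and 6.60 in controls and 7.46, 7.13 and 7.35 in knockouts, a log2 difference of 0.69 (SE 0.10) or 1.61-fold (limma adjusted p = 0.262). It had the smallest p of the serpins by either measure, and its adjusted p is the smallest of all 5017 genes by either measure, a value that tied genes share after adjustment.

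The Serpina1 genes encode copies of alpha-1-antitrypsin, the elastase inhibitor that liver secretes into plasma. Their values did not go one way. *Serpina1a*, with a single dim probe set, had 3.72, 3.59 and 3.64 on the log2 scale in controls and 3.13, 3.37 and 3.36 in knockouts, which did not overlap (log2 difference -0.36, limma adjusted p = 0.215 by gene mean), but both groups lay under the limit. *Serpina1e*, with 1 probe set above the limit, had 7.72, 7.93 and 7.74 in controls and 7.87, 7.85 and 8.03 in knockouts, which overlapped (log2 difference 0.12, limma adjusted p = 0.512). By gene mean *Serpina1c* was at 0.10, *Serpina1d* at 0.01 and *Serpina1f*, a relative expressed in epididymis, at 0.07. By brightest probe set these were 0.40, -0.04 and 0.72, and the *Serpina1f* value has an SE of 0.34.

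**Figure D3:**
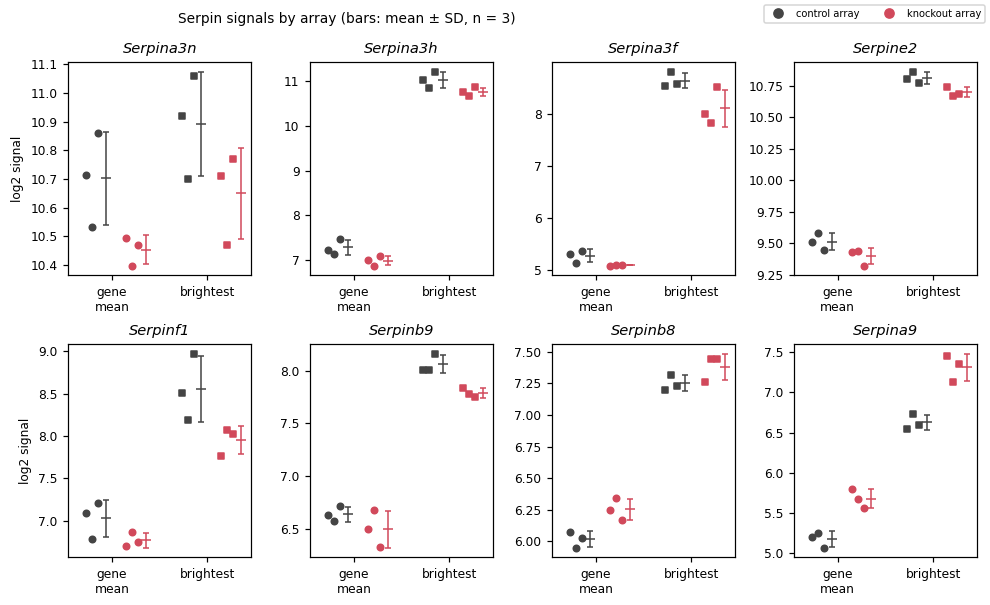
Log2 signal of 8 serpins in each of the 3 control and 3 knockout arrays, by gene mean (circles) and brightest probe set (squares), with bars for mean ± SD (n = 3). The y axes differ between panels. By gene mean the knockout points lie below the control points for *Serpina3n*, *Serpina3h*, *Serpina3f* and *Serpine2*, and above them for *Serpina9* and *Serpinb8*. In *Serpinf1* and *Serpinb9* the groups overlap by gene mean.

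*Serpinb8* was the clade b gene with the smallest p by gene mean, and its values were higher in the knockout. Its gene mean was 6.07, 5.95 and 6.03 on the log2 scale in controls and 6.25, 6.34 and 6.17 in knockouts, with no overlap. Group means were 6.02 ± 0.06 (SD, n = 3) and 6.25 ± 0.09 (SD, n = 3), a log2 difference of 0.24 and an SE of 0.06 (limma adjusted p = 0.220). All 9 probe sets were higher, with log2 differences from 0.09 to 0.52. The brightest gave 0.13 (limma adjusted p = 0.619), with overlapping groups.

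The other clade b genes above the limit by both measures had lower gene means in the knockout, and 0 of them passed. *Serpinb9*, which protects cells from their own or incoming granzyme B, had gene means of 6.63, 6.57 and 6.71 on the log2 scale in controls and 6.49, 6.67 and 6.32 in knockouts, which overlapped (log2 difference -0.14, limma adjusted p = 0.510). At its brightest probe set the values were 8.01, 8.01 and 8.16 against 7.84, 7.78 and 7.75, with no overlap (log2 difference -0.27, SE 0.07, limma adjusted p = 0.441). Of its 9 probe sets 7 were lower and 2 higher, from -0.42 to 0.40. *Serpinb6b* had -0.12 by gene mean (limma adjusted p = 0.577), and -0.03 without control 3. Its brightest probe set had 8.79, 8.87 and 8.82 in controls and 8.56, 8.67 and 8.49 in knockouts, which did not overlap (log2 difference -0.25, SE 0.07, limma adjusted p = 0.449). *Serpinb6a* had -0.10 by gene mean (limma adjusted p = 0.599), with lower values in 8 of 9 probe sets. Leaving out 1 array at a time, gene means ran from -0.23 to -0.05 in *Serpinb9*, from -0.17 to -0.03 in *Serpinb6b* and from -0.17 to -0.04 in *Serpinb6a*.

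*Serpinb1a* shows how the choice of probe set can set the sign. Its gene mean had a log2 difference of -0.13 (limma adjusted p = 0.479) and its brightest probe set 0.22. The next brightest probe set had a log2 difference of -0.32, at 8.56, 8.47 and 8.42 in controls and 8.15, 8.21 and 8.13 in knockouts. Of its 7 probe sets 6 were lower. Its copy *Serpinb1b* had -0.36 by gene mean (limma adjusted p = 0.312) at gene means under the limit, and -0.11 by brightest probe set. Of the 5 Serpinb9 genes, 3 were lower by gene mean and 5 by brightest probe set, with *Serpinb9d*, under the limit by both, at 0.18 and -0.09.

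*Serpine2* had small and uniform differences. Its gene mean was 9.51, 9.58 and 9.45 on the log2 scale in controls and 9.43, 9.44 and 9.32 in knockouts, so the groups lay next to each other without overlap. Group means were 9.51 ± 0.07 (SD, n = 3) and 9.40 ± 0.06 (SD, n = 3), a log2 difference of -0.11 and an SE of 0.06 (limma adjusted p = 0.414). The brightest probe set gave the same log2 difference of -0.11 (SE 0.06, limma adjusted p = 0.572), from 10.80, 10.86 and 10.77 in controls to 10.74, 10.67 and 10.68 in knockouts. All 11 probe sets were lower, from -0.18 to -0.06.

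*Serpinf1* had the largest lower value by brightest probe set among the serpins, and its controls were spread widely. Its brightest probe set had log2 signals of 8.51, 8.19 and 8.97 in controls and 7.77, 8.07 and 8.03 in knockouts. The groups did not overlap, and control 3 was the highest. Group means were 8.56 ± 0.39 (SD, n = 3) and 7.96 ± 0.16 (SD, n = 3), a log2 difference of -0.60 and an SE of 0.20 (limma adjusted p = 0.495), or 1.52-fold lower. Its gene mean was 7.09, 6.78 and 7.21 against 6.70, 6.87 and 6.75, which overlapped (log2 difference -0.26, SE 0.11, limma adjusted p = 0.346). Of its 9 probe sets 8 were lower, and the one that was higher is dim, at 4.15 with a log2 difference of 0.62. Over the 7 probe sets above the limit the mean log2 difference was -0.38. Without control 3 the differences were -0.39 by brightest probe set and -0.17 by gene mean.

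*Serpinf2* had gene means of 5.34, 5.38 and 5.59 on the log2 scale in controls and 5.24, 5.29 and 5.29 in knockouts, with no overlap (log2 difference -0.16, SE 0.07, limma adjusted p = 0.363). Of its 10 probe sets 9 were lower, and the brightest gave -0.07. *Serpinc1*, dim by gene mean, had -0.03 (limma adjusted p = 0.843) and -0.10 by brightest probe set. In *Serpina6* a single dim probe set decided the gene mean of -0.10 (limma adjusted p = 0.496). That probe set, 10402371, had 4.92, 4.90 and 5.38 in controls and 4.05, 4.21 and 3.70 in knockouts (log2 difference -1.08), while 5 of the gene's 9 probe sets were higher.

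**Figure D4:**
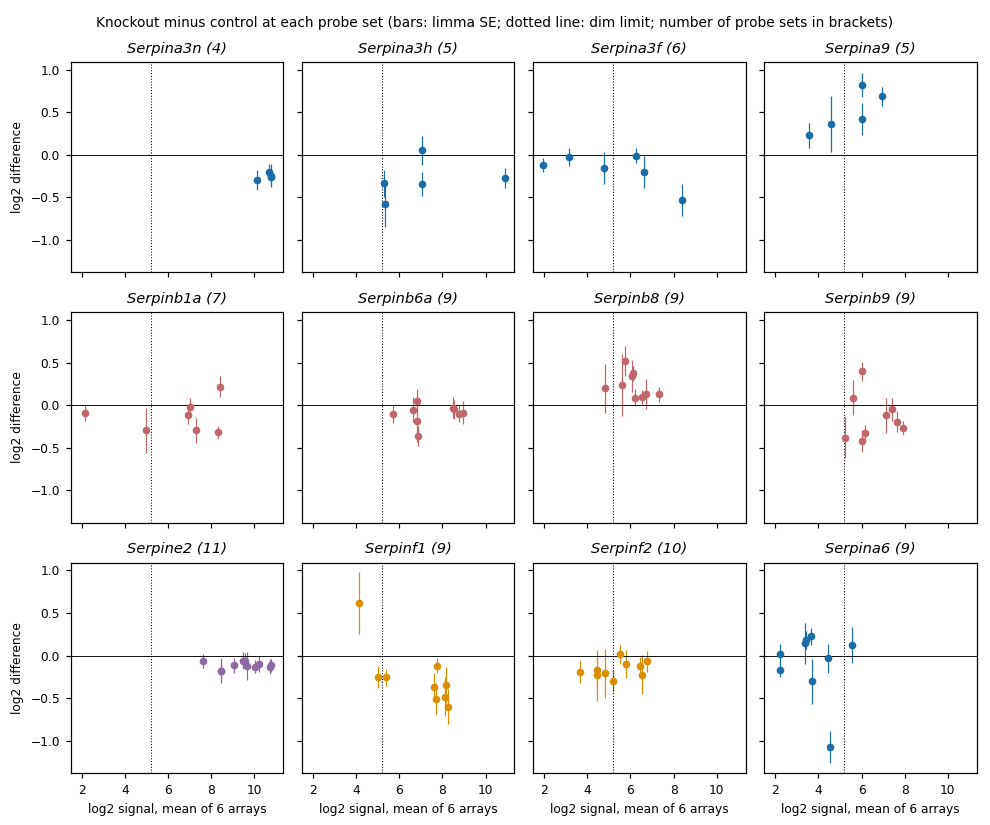
Log2 difference, knockout minus control, at each probe set of 12 serpins against its log2 signal (mean of 6 arrays), with limma standard errors as bars and a dotted line at the dim limit of 5.19. All 4 points of *Serpina3n* and all 11 of *Serpine2* lie below 0, all 5 of *Serpina9* and all 9 of *Serpinb8* above it, and 1 point of *Serpina6* lies at -1.08 under the limit.

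The proteases that serpins act on, and other inhibitors, were sparsely measured and 0 of them passed (percent called over all gene means 0). Of 38 extracellular serine proteases listed, 7 were measured, of which 5 were lower and 2 higher by gene mean (71.4% lower), with a median log2 difference of -0.03. *Prtn3*, the neutrophil proteinase 3, had -0.19 (limma adjusted p = 0.308), *Prss56* -0.19 (0.441) and *Prss57*, a neutrophil granule protease, 0.05 (0.688). Without knockout 2 *Prss56* was at -0.06. Of 20 coagulation and fibrinolysis factors 6 were measured, 4 lower and 2 higher, with a median of -0.00. Coagulation factor gene *F5* had 0.21 (limma adjusted p = 0.215), *F13a1*, the fibrin cross-linking enzyme, -0.18 (0.248) and *F2rl2*, a thrombin receptor, -0.18 (0.481).

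Of 41 other protease inhibitors 9 were measured, 6 lower and 3 higher, with a median log2 difference of -0.08. *Wfdc17* had -0.54 (limma adjusted p = 0.325), *Wfdc18* -0.27 (0.360) and *Cstb*, the cathepsin inhibitor cystatin B, -0.19 (0.354). Without knockout 2 *Wfdc17* was at -0.27, and without control 3 *Wfdc18* was at -0.13. Of 14 intracellular cysteine and caspase proteases 2 were measured and both were lower, the apoptosis initiator *Casp8* at -0.14 (limma adjusted p = 0.439) and the lysosomal *Ctsl* at -0.06 (0.815). Most known protease partners of the serpins above were thus not analysed here.

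Markers of cell types known for these serpins were set beside them, and 0 passed. Of 10 astrocyte markers 5 were measured, 4 of them lower by gene mean and 3 by brightest probe set (51.4% and 56.7% of all genes were), all 5 above the dim limit, and their averaged log2 signal ran from 9.84 to 10.03 in controls and from 9.70 to 9.87 in knockouts. *Gfap*, the astrocyte filament, had gene means of 9.96, 9.59 and 10.42 in controls and 9.79, 9.02 and 9.71 in knockouts (log2 difference -0.48, SE 0.25, limma adjusted p = 0.427). Without knockout 2 it was -0.24, and without control 3 -0.27. *S100b* and *Gja1*, a calcium-binding protein and a gap junction channel of astrocytes, had -0.21 and -0.15 with no overlap (20.2% of all gene means had none). *Aldoc* had -0.02 and *Sox9* 0.04. Of 14 genes listed for reactive astrocytes 3 were measured, *Gfap*, *S1pr3* at 0.01 and *Srgn* at -0.00, and their averaged log2 signal ran from 8.28 to 8.50 in controls and from 8.04 to 8.33 in knockouts. The part of the astrocyte markers in the values of *Serpina3n* and *Serpine2* was not tested. In bulk brain RNA fewer cells of a type and less RNA per cell cannot be told apart.

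Of 10 markers of meningeal fibroblasts, where *Serpinf1* is known to be expressed, 5 were measured, 4 lower by gene mean and 5 by brightest probe set, with an averaged log2 signal from 6.70 to 6.96 in controls and from 6.59 to 6.77 in knockouts. By gene mean *Col1a1* had -0.30 with no overlap (limma adjusted p = 0.274), *Dcn* -0.25 (0.297), *Col3a1* -0.18, *Lum* -0.13 and *Ogn* 0.18. By brightest probe set the values were -0.03, -0.19, -0.0033, -0.18 and -0.02 in that order, each with overlapping groups. Control 3 was the highest of the 6 arrays by gene mean in *Dcn*, *Lum*, *Col1a1* and *Col3a1*, as in *Serpinf1*, and also in *Gfap*, *Serpina3n* and *Serpina3h*. Without it *Col3a1* was at -0.08 and *Lum* at 0.0033. The part of these markers in the *Serpinf1* values was not tested. The labels' tissue was checked with the neuron markers *Syt1* and *Map2*, whose gene means of 11.6 and 10.5 were above the limit, with differences of 0.05 and -0.03. *Cd68*, the 1 measured of 15 microglial markers, had -0.41 by gene mean (limma adjusted p = 0.413), and -0.15 without knockout 2. By gene mean the other measured markers were *Cnp* of oligodendrocytes at -0.05, *Pecam1* and *Rgs5* of vessels at 0.06 and -0.11, and *Kcnj13* and *Ace* of choroid plexus at 0.21 and -0.03. *Slc4a1* and *Hba-x* of red cells were at -0.36 and -0.12, and *Prtn3* and *Mpo* of granulocytes at -0.19 and -0.03. The liver genes *Apoa2*, *Apoh* and *Cps1*, dim by gene mean, were at 0.22, 0.07 and 0.01. Of all these markers 0 passed. By brightest probe set *Slc4a1* was at 0.24, the opposite sign, and *Mpo* at -0.46.

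**Figure D5:**
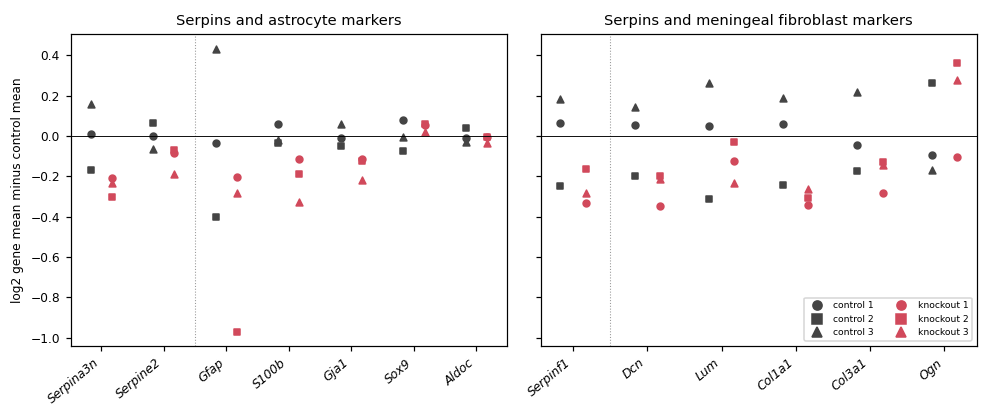
Gene means in each array on the log2 scale after subtracting the gene's control mean, for *Serpina3n* and *Serpine2* beside 5 astrocyte markers (left) and *Serpinf1* beside 5 meningeal fibroblast markers (right). Grey points are controls and red points knockouts, and the symbol gives the array number. Knockout 2 is the lowest point of *Gfap*, and control 3 is the highest of *Serpina3n*, *Gfap*, *Serpinf1*, *Dcn*, *Lum*, *Col1a1* and *Col3a1*.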

How the data were processed

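The authors deposited 1 table of log2 signals, and the submitters' processing notes name MAS5, without a version. That the scale is log2 was taken from the range of values. Array medians ran from 7.04 to 7.09, so no further normalization was applied. How the arrays were brought to 1 scale and the array's build are not given in the sources used here. Of 65535 probe sets, 6616 were taken as control features from knowledge of the ID order and left out. Probe sets with several symbols (877) or none (4398) named no gene. RefSeq of GRCm38.p6 supplied symbols, chromosomes and upstream sequences only. It lists 69 Serpin genes, of which 47 were members by the annotated symbol and 3 had an older symbol, and the other 19 were not analysed here.

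Knockout minus control was fitted over all features with limma 3.58.1 in R 4.3.3 (lmFit, eBayes), two-sided, with Benjamini-Hochberg adjustment and a threshold of 0.05. It was fitted on 58919 probe sets, on 5017 gene means over all probe sets, and on each gene's brightest probe set by mean signal. The fit was tested on simulated data, with noise drawn independently for each feature. It called 11 of 67 probe sets changed 1.5-fold and 34 of 67 changed 2-fold. Of gene means changed 1.5-fold it called 62 of 67. Of unchanged features it called 8 probe sets and 9 gene means. Features changed 2-fold and 4-fold were in the same simulated sets, which eases the adjustment for those changed 1.5-fold. In the data 0 gene means passed, so these counts do not give the share of 1.5-fold changes that would be found here. The small number of arrays limits the precision: permuting 3 and 3 arrays exactly reaches a two-sided p of 0.1 at best. Deviations of same-numbered arrays from their group means correlated at 0.0367, -0.0700 and -0.100, and those of differently numbered arrays at -0.0807 to 0.137. The numbers thus showed no pairing, which so few arrays cannot exclude.

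Members, gene lists and alternatives were chosen with earlier results of these data known. Named were the serpins above the limit by both measures, the 5 in each direction with the smallest p by each measure, several known serpins, 3 genes from each pathway list and 2 from each marker list. Alternatives covered normalization, dim probe sets, the variance model, array weights, the dim limit, a median over probe sets, a replicate block and each array left out (for list genes chosen after seeing the data). Dim serpins, further markers and single probe sets named outside this rule were chosen after their values were seen.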

Additional observations from a re-analysis of the deposited data

Results flagged for a closer look

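There were 11 probe sets annotated with several Serpina1 copies, which named no gene above. Of these, 2 had higher values in each knockout array than in each control array (7.94% of all tested probe sets lay so). Both had signals above the dim limit. Probe set 10402401 had log2 signals of 6.19, 5.87 and 6.12 in controls and 6.27, 6.29 and 6.26 in knockouts, a log2 difference of 0.21. Probe set 10402411 was at most 7.23 in controls, and 7.32, 7.38 and 7.38 in knockouts, a log2 difference of 0.23. In the same set of 11, 3 had all knockout values below the controls, with log2 differences of -0.41, -0.25 and -0.31 (5.52% of all tested lay so). Those at -0.41 and -0.31 were also above the dim limit. The smallest limma adjusted p among the 11 was 0.598.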

How the results depend on the processing

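Under each alternative run, replicate block included, 0 serpins passed the threshold by any of the 3 measures, and without 1 array at a time the count stayed at 0. Over all probe sets the count of 3 became 0 with the replicate block, 6 after quantile normalization, 7 after median centring or with array weights, 19 without dim probe sets (the lowest 1 of 3 by mean signal) and 21 with trend and robust moderation. The number of serpins above dim signal by gene mean, 14, was 35 with the median of the olfactory receptor genes as limit, 11 with their 99th percentile and 1 with the 95th percentile of the control features (9.98), where the 28 by brightest probe set became 42, 22 and 3. Without 1 array it was 14 to 14 by gene mean and 28 to 30 by brightest probe set. Serpins with lower values in the knockout, 30 by gene mean and 29 by brightest probe set, were 17 and 15 without dim probe sets, where fewer serpins were left, and 28 to 35 and 24 to 31 without 1 array. Median centring gave 36 and 29, quantile normalization 29 and 28. Chosen after seeing the data, the count over the genes above the limit by brightest probe set was 22 and 19, and with the 3 older symbols added 31 and 31. Serpin probe sets with an unadjusted p below 0.05, 30, were 18 without dim probe sets.

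Of the values of 23 named serpins under these alternatives, 700 kept their sign and moved by less than 1 SD between replicates, 21 moved by more and 24 changed sign; the cause was not tested. By gene mean *Serpina1d* (0.01) was -0.01 with median centring, -0.04 without dim probe sets, -0.079 with array weights, -0.04 over probe sets above the limit and -0.14 to 0.11 without 1 array. *Serpina1f* was -0.015 with the median over probe sets and *Serpina3c* 0.20 without dim probe sets. Without 1 array gene means ran from -0.01 to 0.24 in *Serpina1c*, -0.0078 to 0.11 in *Serpina1f*, -0.22 to 0.018 in *Serpina3k* by either measure and -0.085 to 0.018 in *Serpinc1*. Brightest probe sets ran from -0.39 to 0.23 in *Serpina1d*, -0.082 to 0.24 in *Serpina3a*, -0.26 to 0.087 in *Serpinb1b*, -0.21 to 0.025 in *Serpinb6a* and -0.31 to 0.04 in *Serpinb9d*. With array weights they were 0.0093 in *Serpinb1b* and 0.0015 in *Serpinf2*. Without 1 array, *Serpina3n* ran from -0.33 to -0.17 by gene mean.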

Other observations

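Genes whose annotated symbol is older than their present Serpin name were not members. *Serpina16* (4 probe sets) had a log2 difference of 0.09 by gene mean and -0.04 at its brightest probe set, which was above the dim limit. *Serpina3i* (1 probe set) had -0.16 and *Serpinb6d* (8 probe sets) 0.14 by gene mean, both under the limit.

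Of 20 probe sets annotated with several Serpinb9 copies, 13 held values identical to another on all 6 arrays and made up 5 distinct measurements, which left 12 distinct among the 20. One such measurement, above the limit, had log2 signals of 6.79, 6.83 and 7.40 in controls and 7.06, 7.52 and 6.07 in knockouts, with knockout 2 the highest and knockout 3 the lowest of all 6 arrays. Another had 5.63, 5.71 and 5.55 in controls and 5.66, 5.43 and 5.55 in knockouts. The groups overlapped in all 20, where they did not overlap in 13.5% of all tested probe sets.

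*Serpina3a*, under the limit, had a probe set (10398031) at 4.39, 3.52 and 3.66 in controls and 3.88, 6.27 and 5.17 in knockouts on the log2 scale, with an SD of 1.20 among the knockouts. Its other 5 probe sets had log2 differences from -0.26 to 0.26.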
